A study of Mus musculus with 6 samples.

Results

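The genes described here are the 4 adult globin genes and the 2 genes for 5-aminolevulinate synthase (ALAS), read as a measure of blood and erythroid cells in orthotopic liver tumors. They were chosen by symbol, as Hba-a1, Hba-a2, Hbb-bs, Hbb-bt, Alas2 and Alas1, and are 6 of the 55536 genes in the deposited count table. After a filter on low counts 15374 genes were tested, 5 of them from this set. Hba-a2 did not pass the filter.

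Hemoglobin is built from a pair of alpha and a pair of beta globin chains, each holding a heme group. Globin mRNA is made in erythroid precursors and persists in reticulocytes, the young red cells that have lost their nucleus, so it reaches any tissue that holds blood. ALAS catalyzes the first and rate-limiting step of heme synthesis in mitochondria. Alas2 is the erythroid form, switched on together with the globins during red cell development. Alas1 is the general form, used in every tissue and especially in hepatocytes, which need heme for cytochrome P450 enzymes.

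Male C3H/HeNCrNarl mice (C3H in the labels) aged 6 to 8 weeks received HCA-1 cells, a mouse line of hepatocellular carcinoma (HCC), by injection under the liver capsule. The 3 control libraries, numbered 5, 6 and 7, came from untreated tumors. The 3 treated libraries, numbered 1, 2 and 5, came from mice given intravenous GOx-DOX-LGP, a nanogel carrying glucose oxidase (GOx) and doxorubicin (DOX). The labels place dosing on days 18, 19 and 20 but the transcriptome on day 17 after 3 h of circulation. The study's methods for tumor PCR place harvest on the day after the last dose, and its sequencing methods give no harvest day. Its tumor growth experiment with this nanogel used another dosing and harvest schedule, so these accounts differ. Whole tumors were used for total RNA, and no perfusion to remove blood is stated for them. A group of 3 libraries is a small sample of a single implanted line, untreated controls received no empty nanogel as far as the labels tell, and nothing in the labels says how much surrounding liver was taken with each tumor.

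Libraries held 15529940 to 18401178 counts. Levels are given as CPM, counts scaled to library size with a correction by the trimmed mean of M values (TMM), and 3 counts corresponded to 0.132 to 0.323 CPM. The 3 controls were not alike, and this touches every result below. The 12 hepatocyte genes, secreted plasma proteins and liver enzymes such as Alb, Ttr and Apoa1, summed to 131328 CPM in control 6 and 215293 CPM in control 7, but to 682 CPM in control 5 and to 1471 to 3667 CPM in the treated libraries. Markers of the labelled tumor cell type were mixed. Krt8 and Krt18, keratins of simple epithelia, lay between 313 and 790 CPM in all 6 libraries. The proliferation gene Mki67, named after its values had been seen, was at 347, 124 and 15.4 CPM in controls 5, 6 and 7 and at 238 to 284 CPM in treated libraries, and Top2a, another, at 317, 80.3 and 10.4 CPM against 214 to 301 CPM. The 8 tumor cell genes summed to 1731, 981 and 693 CPM in controls and to 1591 to 1876 CPM in treated libraries, so controls 6 and 7 were the lowest. Afp, the fetal albumin relative used as an HCC marker, reached only 2.25 to 13.2 CPM and Igf2 at most 0.254 CPM.

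The sequence before the RefSeq start of the erythroid genes is shown first, because these genes were high in the same libraries and are textbook targets of the erythroid factors GATA1 and KLF1. The stretches are from RefSeq on GRCm38.p6, where 5 of the 6 genes had a stretch outside the annotated exons of their own gene. Bases in such exons were left out, so the Hbb-bt and Alas2 stretches stop short of the RefSeq start. The Alas1 window lies inside an annotated Alas1 exon and is not printed. Capitals mark 4 motifs on either strand. The GATA motif was searched as the letters GATAA. The box that KLF factors bind was searched as CACCC. The box of general promoter factors named after its letters was searched as CCAAT. The TATA box was searched as TATAA. The Hba-a2 stretch is chr11:32296242-32296488 (forward strand), and over 297 of 297 compared bases its 300-base window equals that of Hba-a1 shifted by 3 bases.
Hba-a2: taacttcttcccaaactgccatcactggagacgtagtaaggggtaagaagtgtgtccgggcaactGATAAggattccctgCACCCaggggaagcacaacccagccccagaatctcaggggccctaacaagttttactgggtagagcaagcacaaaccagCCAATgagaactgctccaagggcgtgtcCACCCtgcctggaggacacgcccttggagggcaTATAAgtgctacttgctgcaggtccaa
The beta globin stretches are chr7:103827929-103828011 (reverse strand) and chr7:103813997-103814173 (reverse strand). The first of them precedes the RefSeq start of Hbb-bs but lies within the longer span that GENCODE gives this gene, outside its annotated exons.
Hbb-bs: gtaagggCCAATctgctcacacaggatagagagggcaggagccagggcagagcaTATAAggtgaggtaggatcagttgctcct
Hbb-bt: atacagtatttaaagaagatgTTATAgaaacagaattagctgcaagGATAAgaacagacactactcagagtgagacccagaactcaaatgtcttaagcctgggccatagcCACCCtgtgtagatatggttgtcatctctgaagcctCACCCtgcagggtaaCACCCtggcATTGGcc
The Alas2 stretch is chrX:150547167-150547374 (forward strand).
Alas2: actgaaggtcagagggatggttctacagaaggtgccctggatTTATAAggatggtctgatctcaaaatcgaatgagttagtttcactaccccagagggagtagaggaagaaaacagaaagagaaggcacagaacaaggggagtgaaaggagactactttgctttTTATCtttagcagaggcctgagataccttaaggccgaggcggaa
In the full 300-base windows, from 250 bases before the start to 50 after it, the GATA motif occurred 1 time each in Hba-a1, Hba-a2, Hbb-bs, Hbb-bt and Alas2 and 0 times in Alas1. Among 32851 RefSeq windows of 300 bases, 25.4% held the GATA motif, 57.5% the KLF box, 37.4% the third of these motifs and 24.9% the TATA box on either strand. The 2 TATA box matches of Alas2 overlap, as the motif reads on both strands there. The full Hbb-bt window held 3 CCAAT and 2 TATA box matches, of which 1 each lies in the printed stretch. These matches describe letters and do not show that a factor was bound.

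Hba-a1 encodes the main alpha chain measured here and lies on chromosome 11, 32283511 to 32284465 of the forward strand (GRCm38, GENCODE M21). It was at 5.75 CPM in control 5, 139 CPM in control 6 and 99.5 CPM in control 7, against 9.89, 5.05 and 16.9 CPM in treated libraries 1, 2 and 5. Controls 6 and 7 stood above every treated library while control 5 lay among them, so the groups overlapped. The difference was -2.94 on the log2 scale (SE 1.10, edgeR unadjusted p = 0.036, adjusted p = 0.259).

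Hba-a2, the second alpha copy on chromosome 11 (32296489 to 32297298, forward strand), had 22 counts in control 6, 1 count in control 7 and 0 in the other 4 libraries. Its transcripts share 89.3% of their 50-base stretches with Hba-a1, and 72.3% of those of Hba-a1 recur in Hba-a2. The division of reads between the copies is therefore uncertain, and the low Hba-a2 count does not show that this copy was silent. With the copies summed, alpha globin differed by -2.95 (SE 1.10, edgeR adjusted p = 0.258).

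Hbb-bs encodes an adult beta chain and lies on chromosome 7, 103826534 to 103828096 of the reverse strand. It was at 5.75, 156 and 128 CPM in controls 5, 6 and 7 and at 11.4, 7.2 and 21.1 CPM in treated libraries 1, 2 and 5. Control 5 was the lowest of the 6 libraries. The log2 difference was -2.87 (SE 1.12, edgeR unadjusted p = 0.0416, adjusted p = 0.269).

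Hbb-bt, the other adult beta gene (chromosome 7, 103812524 to 103813996, reverse strand), was measured at a lower level, at 0.614, 13.5 and 11.7 CPM in controls 5, 6 and 7 and at 0.989, 0.441 and 2.65 CPM in treated libraries 1, 2 and 5. Control 5 was above treated library 2 and below treated libraries 1 and 5, as for Hba-a1. The log2 difference was -2.65 (SE 1.18, edgeR unadjusted p = 0.0641, adjusted p = 0.309). Hbb-bt and Hbb-bs share 58.3% and 53.2% of their 50-base stretches with each other. C3H mice are known to carry the diffuse beta globin haplotype, while Hbb-bs and Hbb-bt name the genes of the haplotype of C57BL/6 mice, so the split between the beta genes is uncertain as well. Their sum differed by -2.85 (SE 1.12, edgeR adjusted p = 0.273).

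Alas2, on chromosome X (150547375 to 150570638, forward strand), had the widest range of the set. It was at 1.05 CPM in control 5, 95.1 CPM in control 6 and 185 CPM in control 7, and at 1.93, 1.08 and 1.30 CPM in treated libraries 1, 2 and 5. These levels rest on 24, 1121 and 1721 counts in the controls and on 39, 22 and 25 counts in the treated libraries. Control 5 had the lowest level of all, and controls 6 and 7 the highest. The log2 difference was -6.02 (SE 1.66, edgeR unadjusted p = 0.0104, adjusted p = 0.247), and 0.247 was also the smallest adjusted p of any gene. Exons of Apex2, a DNA repair nuclease, overlap Alas2 on the opposite strand, and 11% of the 50-base stretches of Alas2 are shared with it. Apex2 stayed between 5.49 and 8.65 CPM in the 6 libraries.

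Alas1, on chromosome 9 (106233455 to 106248654, reverse strand), ran at 15.2, 38.4 and 95.5 CPM in controls 5, 6 and 7. In treated libraries 1, 2 and 5 it was at 19.4, 19.3 and 18.1 CPM, a mean of 18.9 ± 0.729 (SD, n = 3). Control 5 was again the lowest library. The log2 difference was -1.39 (SE 0.63, edgeR unadjusted p = 0.0688, adjusted p = 0.314). Without control 7 it was -0.50 (edgeR adjusted p = 0.77).

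**Figure D1:**
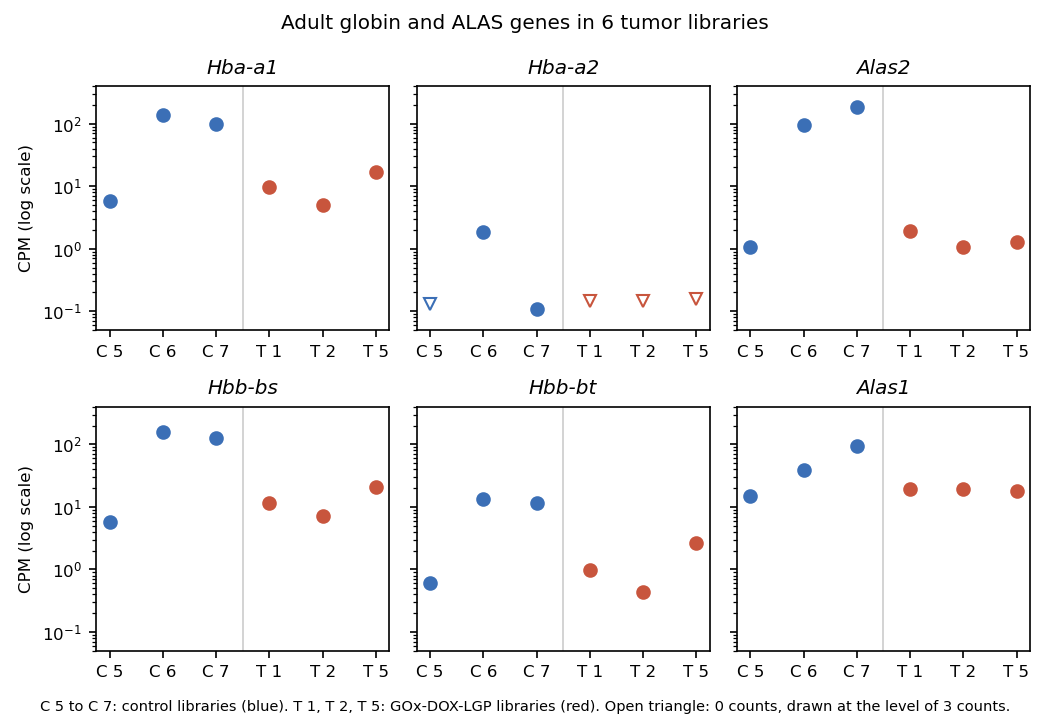
CPM on a log axis for each gene in the 3 control libraries (C 5, C 6, C 7, blue) and the 3 GOx-DOX-LGP libraries (T 1, T 2, T 5, red), 1 point a library; open triangles stand for 0 counts and are drawn at 3 counts. Apart from Hba-a2, controls 6 and 7 lie above every treated library in each panel, and control 5 lies with the treated libraries.

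At an adjusted p under 0.05 edgeR called 0 of the 5 tested members, where it called 0% of all genes. At an unadjusted p under 0.05 it called 3 of them lower in the treated libraries (Hba-a1, Hbb-bs and Alas2), beside 14.6% of all genes. Their median log2 difference was -2.87, beside 0.02 over all genes tested. For 0 of the 5 were the groups free of overlap, where 8.31% of all genes were lower and 8.87% higher without overlap. The two-sided exact permutation test over libraries gave p = 0.3 for Hba-a1 and Hbb-bt and p = 0.4 for Hbb-bs, Alas2 and Alas1, and 0.1 is the smallest p that 3 against 3 libraries allow. These p-values measure the spread between the sequenced libraries, since the labels do not say more of how the tumors were sampled. In bulk RNA, fewer cells of a type and less RNA per cell cannot be told apart.

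DESeq2 called 2 of the 5, Hba-a1 (adjusted p = 0.0441) and Alas2 (adjusted p = 0.000729), against 8.93% of all genes called lower. Limma voom with sample quality weights called all 5 tested, with adjusted p from 0.000819 for Hbb-bs to 0.00843 for Alas1, against 30.9% of all genes called lower. The edgeR calls turned on control 5. Without it edgeR called the 5 lower, with log2 differences of -3.46 for Hba-a1, -3.39 for Hbb-bs, -3.18 for Hbb-bt, -6.57 for Alas2 and -1.79 for Alas1 and adjusted p from 5.12e-05 (Alas2) to 0.00572 (Hbb-bt), against 25.5% of all genes called lower. With control 5 as the only control, the signs turned to 0.90 for Hba-a1, 1.22 for Hbb-bs, 1.15 for Hbb-bt, 0.46 for Alas2 and 0.33 for Alas1, and edgeR called 0 of the 5 (adjusted p from 0.885 to 0.926), where it called 0% of all genes.

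**Figure D2:**
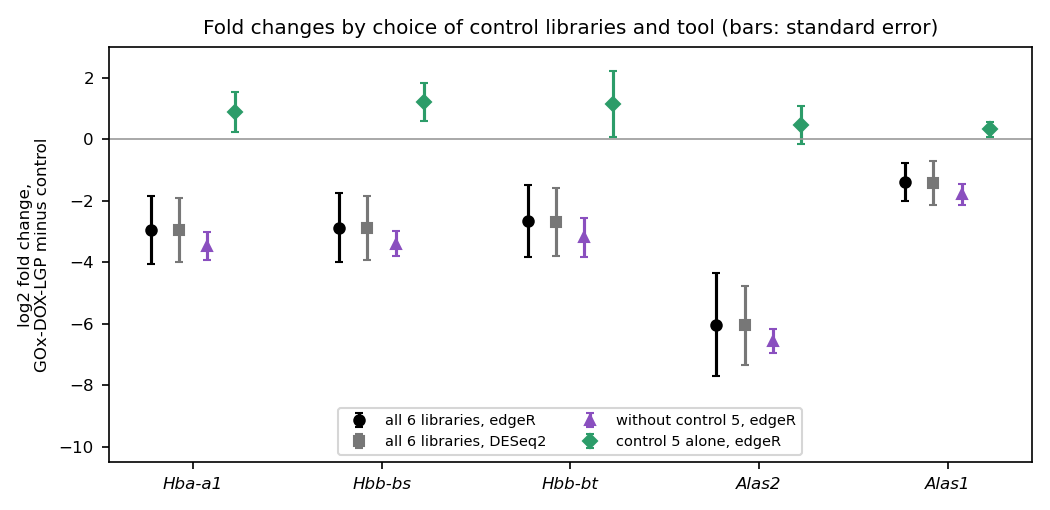
Log2 fold change, GOx-DOX-LGP minus control, of the 5 tested genes with all 6 libraries in edgeR (black) and DESeq2 (grey), without control 5 (purple) and with control 5 as the only control (green); bars are standard errors. The differences are negative in the first 3 fits, from -1.39 to -6.57, and between 0.33 and 1.22 with control 5 alone.

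As a share of the library counts, the 4 globins were low in every tumor. The paper does not state how reads that match both copies of a globin were counted. The globin shares, and the globin counts per Alas2 count given below, may therefore be too low. They took 0.0015% of counts in control 5 (95% Wilson interval 0.00133 to 0.00169%), 0.0235% in control 6 (0.0227 to 0.0242%) and 0.0136% in control 7 (0.013 to 0.0142%). In treated libraries 1, 2 and 5 the shares were 0.00276% (0.00251 to 0.00302%), 0.00154% (0.00136 to 0.00174%) and 0.00504% (0.00469 to 0.0054%). Such intervals cover counting error only. Treated library 5 held the most globin of the treated libraries and control 6 the most of all, and the shares of control 5 and treated library 2 had overlapping intervals. The group means were 0.0129 ± 0.011% in controls and 0.00311 ± 0.00178% in treated tumors (SD, n = 3 each).

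The balance between chains varied far less than the level. Hba-a1 made up 50% of the summed Hba-a1 and Hbb-bs counts in control 5 (44 to 56%), 47.0% in control 6 and 43.7% in control 7, and 46.4, 41.2 and 44.5% in treated libraries 1, 2 and 5. Hba-a1 and Hbb-bs counts were thus of similar size at high and at low levels, without Hba-a2, Hbb-bt or a correction for transcript length. Hbb-bt supplied 9.66, 7.94 and 8.39% of the beta globin counts in controls 5, 6 and 7 and 7.97, 5.77 and 11.2% in the treated libraries.

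The erythroid and the general ALAS gene did not keep such a balance. Alas2 made up 6.49% of the ALAS counts in control 5 (4.4 to 9.47%), 71.2% in control 6 (68.9 to 73.4%) and 66.0% in control 7 (64.1 to 67.8%). In the treated libraries its share was 9.03% (6.67 to 12.1%), 5.29% (3.52 to 7.88%) and 6.70% (4.58 to 9.71%). Per kilobase of transcript there were 2.59 and 2.03 Alas2 counts for each Alas1 count in controls 6 and 7, and 0.0584 to 0.104 in the other 4 libraries. On the log2 CPM scale, Alas2 minus Alas1 came to -3.71, 1.30 and 0.96 for controls 5, 6 and 7 and to -3.26, -4.02 and -3.69 for treated libraries 1, 2 and 5. The group means were -0.48 ± 2.80 and -3.66 ± 0.38 (SD, n = 3 each), a difference of -3.17 with a two-sided exact permutation p of 0.3. Against control 5 alone the difference was 0.05.

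Alas2 and the globins did not move in proportion. For each Alas2 count there were 11.5 globin counts in control 5, 3.27 in control 6 and 1.29 in control 7, and 11.6, 11.8 and 31.3 in treated libraries 1, 2 and 5. Control 7 had more Alas2 than control 6 but less globin. Treated library 5 had the highest globin level of the treated tumors, with Alas2 between the levels of the other two. Per kilobase, Hbb-bs was at 249 and 204 CPM in controls 6 and 7 and Alas2 at 46.7 and 90.9 CPM, whereas in control 5 they were at 9.15 and 0.517 CPM.

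**Figure D3:**
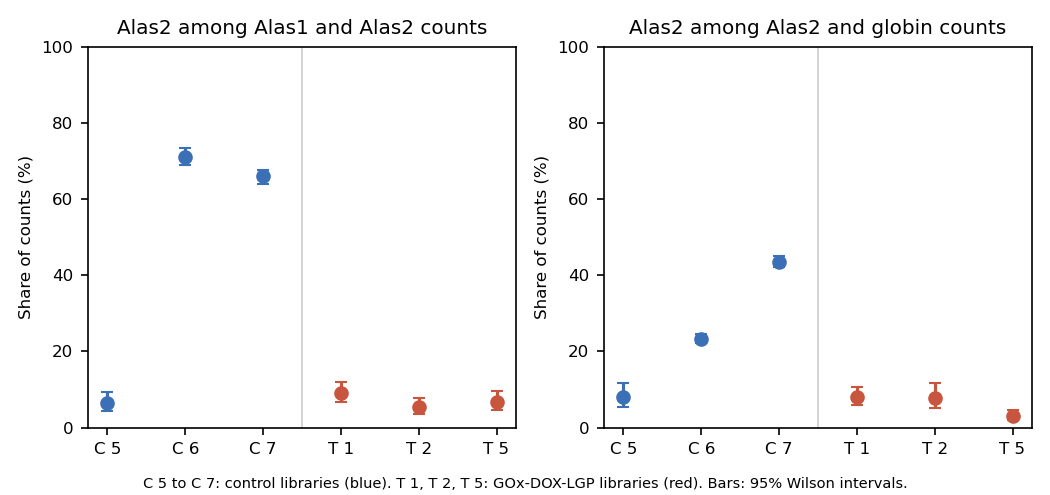
Share of counts (%) taken by Alas2 among both ALAS genes (left) and among Alas2 and the 4 globins (right), 1 point a library, with 95% Wilson intervals for counting error. On the left controls 6 and 7 are at 71.2 and 66.0% and the other 4 libraries between 5.29 and 9.03%; on the right the share is 23.4% in control 6, 43.6% in control 7 and at most 8.00% elsewhere.

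Heme synthesis runs through 8 steps, from ALAS to ferrochelatase (Fech), which inserts iron. Each of the 9 enzyme genes, Alas1 and Alas2 included, had a negative log2 difference with all 6 libraries, with a median of -1.39 beside 0.02 over all genes. In edgeR 0 of 9 passed an adjusted p under 0.05 and 5 of 9 an unadjusted p under 0.05 (Alas2, Alad, Urod, Cpox and Fech), all lower, beside 14.6% of all genes. DESeq2 called 3 of 9 lower, Alas2, Alad and Fech, beside 8.93% of all genes. Without control 5, edgeR called 8 of 9 lower, beside 25.5% of all genes, and Uros, which makes uroporphyrinogen III, did not pass (adjusted p = 0.0553).

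Alad, which joins a pair of aminolevulinate molecules, was at 30.1, 198 and 344 CPM in controls 5, 6 and 7 and at 38.8, 30.5 and 44.2 CPM in treated libraries 1, 2 and 5, with a log2 difference of -2.34 (SE 0.81). Fech was at 41.5, 256 and 370 CPM in controls and at 43.4, 57.8 and 35.1 CPM in treated libraries, a difference of -2.29 (SE 0.76). Cpox, the coproporphyrinogen oxidase, was at 38.0, 109 and 213 CPM against 40.2, 32.1 and 37.8 CPM, a difference of -1.71 (SE 0.60). The same order of libraries as for Alas1 is visible, with control 7 highest, then control 6. Urod, which removes carboxyl groups from uroporphyrinogen, differed by -1.34 (SE 0.47), with 24.1, 67.2 and 86.4 CPM in controls and 21.2 to 27.7 CPM in treated libraries. Ppox, the protoporphyrinogen oxidase, differed by -0.73 (SE 0.36) and Uros by -0.64 (SE 0.36). With library totals in place of TMM the median of all genes moved from 0.02 to 0.51, and Uros then turned to 0.02. Control 6 exceeded every treated library for 9 of 9 enzymes, beside 5933 of the 15374 genes tested, and control 7 for 9 of 9, beside 6168. Control 5 lay below every treated library for 4 of 9 enzymes, beside 4002 of the genes tested.

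**Figure D4:**
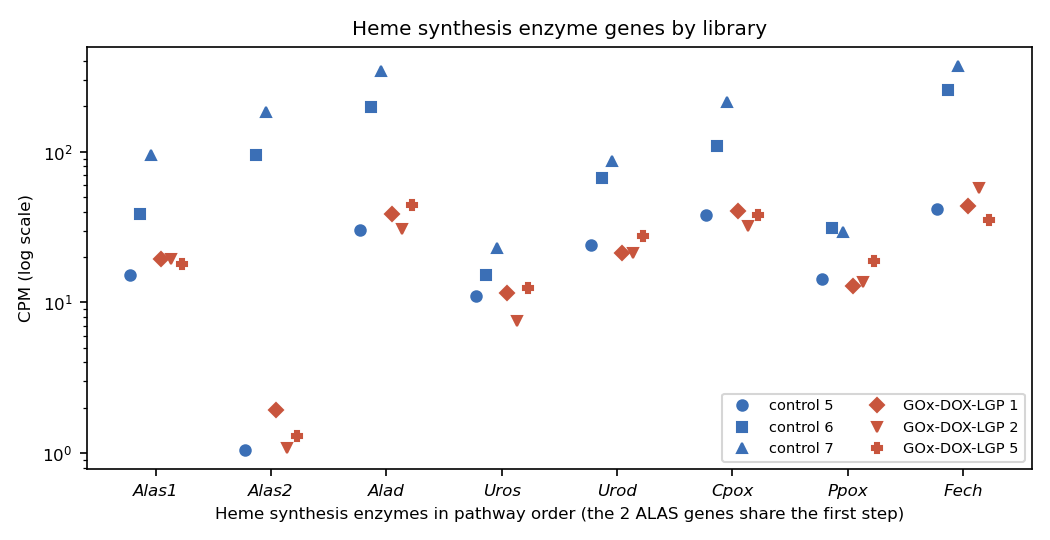
CPM on a log axis of 8 of the heme synthesis enzyme genes in pathway order, 1 point a library, with controls in blue and GOx-DOX-LGP libraries in red. Controls 6 and 7 are above the treated libraries for each gene shown, with the widest gap at Alas2, and control 5 lies near or below the treated points.

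The mitochondrial carriers and helper proteins of heme and iron use showed 10 of 12 negative differences, a median of -1.23 and 7 of 12 lower at an unadjusted p under 0.05, beside 14.6% of all genes. Clpx, the chaperone that loads ALAS with its cofactor, differed by -2.52 (SE 0.79). It was at 22.8, 190 and 227 CPM in controls 5, 6 and 7 and at 23.9 to 28.2 CPM in treated libraries, and it was the 1 carrier gene that DESeq2 called (adjusted p = 0.0214). Abcb6, a porphyrin transporter, differed by -1.88 (SE 0.65). Slc25a37, the mitochondrial iron importer mitoferrin-1 of erythroid cells, was named after its values had been seen because it ran the other way. It was at 267, 89.9 and 104 CPM in controls 5, 6 and 7 and at 230, 134 and 257 CPM in treated libraries, so controls 6 and 7 were the lowest.

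Genes that define red cells were at or near 0. Slc4a1, the band 3 anion exchanger and the most abundant red cell membrane protein, was at 0.0439, 0.763 and 0.215 CPM in controls 5, 6 and 7 and at 0.148, 0.049 and 0.208 CPM in treated libraries. Kel and Icam4, which encode red cell surface antigens, had 0 counts in all libraries. Of 16 red cell membrane genes, 9 passed the filter on low counts, with 3 negative and 6 positive differences and a median of 0.45. Those that passed include genes used well beyond red cells. Epb41, a cytoskeletal protein, was at 55.9, 145 and 190 CPM in controls and 48.0 to 54.2 CPM in treated libraries, a log2 difference of -1.33 (SE 0.45), and Xk, the Kx antigen protein, differed by -2.96 (SE 0.96). Rhd, a red cell antigen gene, ran the other way by 0.95 (SE 0.96), at 0.965, 0.0848 and 0.108 CPM in controls and 0.294 to 1.33 CPM in treated libraries. Ermap, an erythroid membrane protein named after its values had been seen, differed by 0.77 (SE 1.01) and was also lowest in controls 6 and 7. Summed, the list was at 224 to 247 CPM in controls and at 184 to 205 CPM in treated libraries. That sum is mostly Epb41 and Add2, a membrane skeleton adducin named after its values had been seen, which ran in opposite order in the controls. Add2 was at 151, 32.6 and 5.38 CPM in controls 5, 6 and 7 and at 97.4 to 112 CPM in treated libraries.

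Erythroid regulators gave a similarly divided picture. Klf1, the erythroid factor that binds CACCC boxes, had 0 CPM in control 5, 2.04 in control 6 and 3.34 in control 7, and at most 0.104 CPM in the treated libraries, and it did not pass the filter with all 6 libraries. Gata1, the master factor of erythroid cells, was at 0.198 CPM or below in all libraries and had 0 counts in controls 6 and 7, the libraries with the most globin and Alas2. Epor, the erythropoietin receptor, was at 0.614, 1.78 and 0.538 CPM in controls and at 0.445, 0.784 and 0.156 CPM in treated libraries. Nfe2, a globin locus activator, differed by -2.05 (SE 0.71) and Zfpm1, the GATA1 partner FOG1, by -1.28 (SE 0.40), and 2 of the 9 regulators tested passed an unadjusted p under 0.05, both lower, beside 14.6% of all genes. Of these 9, 5 differences were negative and 4 positive, with a median of -0.15. Among 16 late erythroid and red cell enzyme genes, 10 passed the filter, with a median of -0.28. Car2, a carbonic anhydrase of red cells, differed by -1.07 (SE 0.58) and Spire1, an actin nucleator, by 1.09 (SE 0.78). Car1, the carbonic anhydrase of red cells and colon, was named after its values had been seen and stood at 0.132, 12.4 and 21.4 CPM in controls and at 0.26 CPM or below in treated libraries.

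Of the other globins, Hba-x, Hbb-y, Hbb-bh1, Hbb-bh2 and Hbq1a had 0 counts in all libraries, so embryonic globin RNA was not detectable at this depth. Cygb, a globin of fibroblast-like cells and not of red cells, was at 45.8, 50.3 and 36.8 CPM in controls 5, 6 and 7 and at 35.8, 45.0 and 19.9 CPM in treated libraries, a difference of -0.40 (SE 0.33) that turned to 0.09 with library totals.

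Proteins that take up free hemoglobin and heme are made by hepatocytes and macrophages. Hp, haptoglobin, which binds hemoglobin in plasma, was at 33.7, 4060 and 2688 CPM in controls 5, 6 and 7 and at 162, 92.4 and 136 CPM in treated libraries, a log2 difference of -4.12 (SE 1.48). Hpx, hemopexin, which binds free heme, was at 31.7, 5333 and 4305 CPM in controls and at 182, 86.1 and 143 CPM in treated libraries, a difference of -4.56 (SE 1.61). Both followed controls 6 and 7, as the hepatocyte list did. Hmox1, the inducible heme oxygenase that breaks heme down, was at 26.1, 46.8 and 35.2 CPM in controls and at 62.0, 55.7 and 41.2 CPM in treated libraries, a difference of 0.56 (SE 0.29, edgeR adjusted p = 0.357). In the list of 13 genes, 9 differences were negative and 5 passed an unadjusted p under 0.05, all lower, beside 14.6% of all genes. Those were Hp, Hpx, Flvcr2, Hebp1 and Spic, and Flvcr2, a heme and choline transporter family member, differed by -3.27 (SE 1.18).

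Other constituents of blood did not show the pattern of the globins. Pf4, a platelet granule chemokine, was at 2.90, 12.3 and 5.27 CPM in controls 5, 6 and 7 and at 10.1, 30.9 and 12.7 CPM in treated libraries. Ppbp, another platelet chemokine, lay between 0.323 and 1.35 CPM. The 14 platelet genes summed to 32.2, 51.2 and 35.0 CPM in controls and 41.7, 85.3 and 42.9 CPM in treated libraries, with a median difference of -0.12 over the 7 tested. Clec1b, a podoplanin receptor of platelets that liver sinusoid cells and macrophages also express, stood apart at 1.93, 18.1 and 15.5 CPM in controls and 0.931 to 2.03 CPM in treated libraries (log2 difference -2.91, SE 0.85). The 11 neutrophil genes summed to 21.9, 23.0 and 8.72 CPM in controls and to 20.4, 26.2 and 83.1 CPM in treated libraries. Treated library 5, the treated tumor with the most globin, also had the highest sum of these neutrophil genes. Ngp, a neutrophil granule protein, was at 13.6 CPM there against at most 1.68 CPM elsewhere. Csf3r and Cxcr2, of the same list and named after their values had been seen, did not follow. Csf3r was at 17.0 CPM in treated library 2 and 16.0 CPM in treated library 5, and Cxcr2 was highest in control 6 (2.29 CPM). The other genes of the list were highest in treated library 5. Ptprc, the pan-leukocyte CD45 gene, was at 116, 69.2 and 39.3 CPM in controls and at 90.8, 115 and 116 CPM in treated libraries.

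Endothelial genes followed controls 6 and 7 in part. The 12 genes summed to 160, 303 and 336 CPM in controls 5, 6 and 7 and to 141, 130 and 120 CPM in treated libraries, with 11 of 12 negative, a median of -1.24 and 9 of 12 lower at an unadjusted p under 0.05, beside 14.6% of all genes. For 8 of these 12 the treated libraries were all below the controls, control 5 included, beside 8.31% of all genes and 0 of the 5 members tested. Kdr, the VEGF receptor, differed by -2.31 (SE 0.62), Tek, the angiopoietin receptor, by -2.37 (SE 0.64) and Vwf, von Willebrand factor, by -2.07 (SE 0.47). Pecam1, expressed by endothelium of every vessel type, was at 38.5, 44.1 and 42.3 CPM in controls and at 35.6, 33.7 and 33.8 CPM in treated libraries, a difference of -0.28 (SE 0.17) that turned to 0.27 with library totals.

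**Figure D5:**
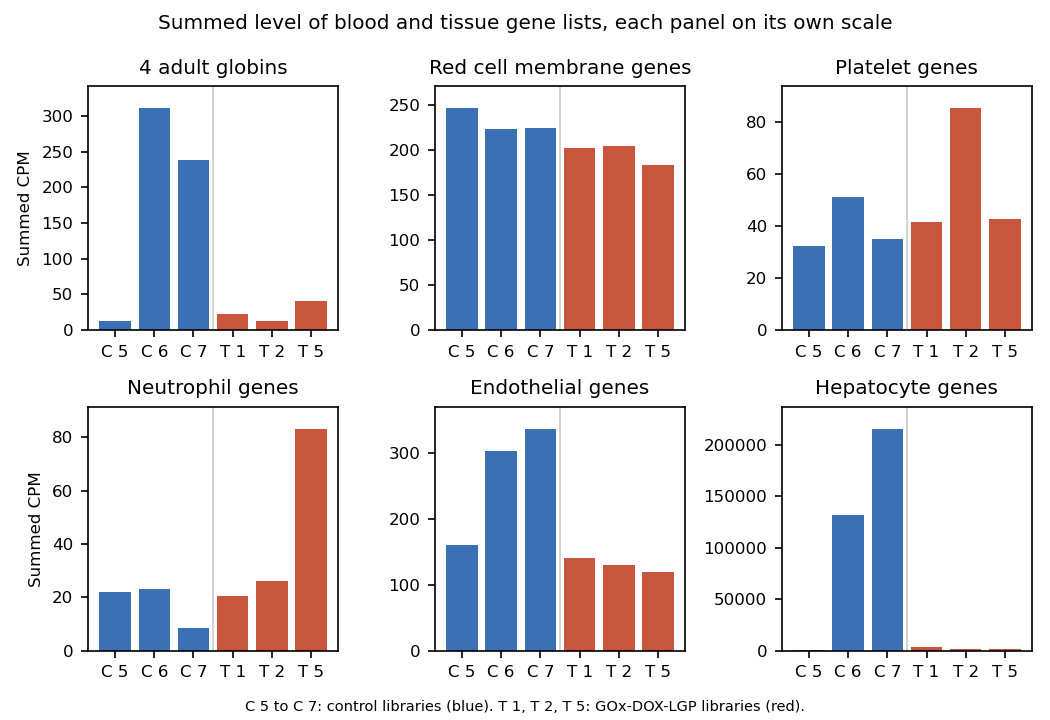
Summed CPM of the 4 adult globins and of 5 marker lists in each library (C, control, blue; T, GOx-DOX-LGP, red), every panel with its own axis from 0. Globins and hepatocyte genes are high only in controls 6 and 7, endothelial genes are highest there, and the red cell membrane, platelet and neutrophil lists are not.

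Hepatocyte genes set controls 6 and 7 apart from the other 4 libraries, as the globins and Alas2 did. All 12 had negative differences, with a median of -5.57, and 12 of 12 passed an unadjusted p under 0.05 and the adjusted threshold of DESeq2, beside 14.6% and 8.93% of all genes. Alb was at 353, 73804 and 128244 CPM in controls 5, 6 and 7 and at 1893, 733 and 1061 CPM in treated libraries. For 12 of 12 genes control 5 lay below every treated library, beside 4002 of the 15374 genes tested. The part of hepatocyte RNA in the differences of the globins, Alas2, Alas1 and the other heme enzymes was not tested. Hepatocyte genes and globins were both high in controls 6 and 7 but did not rank alike. The hepatocyte list summed to 131328 and 215293 CPM in controls 6 and 7, and the globins to 311 and 239 CPM. In treated libraries 1, 2 and 5 the hepatocyte sums were 3667, 1471 and 2003 CPM and the globin sums 22.3, 12.7 and 40.7 CPM. Alas2 and Alas1, like the hepatocyte list, were higher in control 7 than in control 6.

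Across the 6 libraries, which share the split between controls 6 and 7 and the rest, the log2 CPM of Alas2 was most like that of Enpep (Pearson r = 1.000), L3hypdh, Sec14l2, Inca1 and Pxmp2 (r = 0.999 each), and 2386 genes had an r above 0.95. Alb had r = 0.989 with Alas2, 0.930 with Alas1 and 0.943 with the mean of the 4 globins. The genes most like Alas1 were Ufm1 (r = 0.999), Fbxo33 and Calr (0.997), Chmp7 (0.996) and Ccdc91 (0.995), with 813 genes above 0.95. The mean of the globins was most like Gm28557 (r = 0.998), Rgs16 (0.996), Xkr6 (0.990), Igfbp1 (0.989) and Zfp108 (0.988), with 408 genes above 0.95. That mean includes Hba-a2, which had 0 counts in 4 libraries. For the mean of Hba-a1, Hbb-bs and Hbb-bt alone the names were others, Ggnbp2 (r = 0.995), Reep1, Capn15, Gpm6a and Prpf40b (0.993 each), 904 genes had an r above 0.95, and Alb had r = 0.956. Igfbp1, a liver-secreted binding protein of insulin-like growth factors, was at 3.86, 86.3 and 61.3 CPM in controls and 7.76, 6.07 and 12.2 CPM in treated libraries, so like the globins it was higher in control 6 than in control 7. With so many genes at a high r, these names describe a shared pattern of libraries and no more.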

How the data were processed

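Tumor RNA libraries of 3 untreated and 3 GOx-DOX-LGP-treated mice were grouped and numbered from their labels. The raw counts per gene were deposited by the authors without normalization. The signal values deposited beside them are these counts divided by a size factor per library, from 0.5321 to 1.3219, and served only for gene symbols and as another denominator. The paper's methods name TopHat and HTSeq, whereas the submitters' processing notes list Trimmomatic 0.38, HISAT2 2.1.0 and featureCounts 2.0.0. Which made the counts is not settled, and the genome build, annotation and strand setting are not given in the sources used here.

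Counts were filtered with filterByExpr, scaled by TMM and tested over all 6 libraries with the quasi-likelihood test of edgeR 4.0.16 in R 4.3.3, with Benjamini-Hochberg adjustment at 0.05. Log2 CPM used a prior count of 2. Alternatives were DESeq2 1.42.0, limma 3.58.1 voom with sample quality weights, other scalings and filters, globin copies summed, and leaving out each library. Control 5 as the only control was added after values had been seen. The steps were tested on simulated counts. Per-kilobase levels used 1 GENCODE M21 transcript a gene.

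The members and the 16 gene lists were chosen with earlier results of these data known. Named genes were the members, the heme enzymes, defining markers set by name, the 3 largest differences of each other list and the 5 genes most like Alas2, Alas1 and the globin mean, of which some are not reported here. Library totals lay between 15529940 and 18401178 counts, which puts 3 counts at or below 0.323 CPM.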

Additional observations from a re-analysis of the deposited data

How the results depend on the processing

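No paired analysis was possible because the groups share only 1 replicate number, 5, and nothing says that it marks a shared animal or batch. Control 5 was the library on which the edgeR calls turned, and the cause was not tested. Genes with an adjusted p under 0.05 numbered 0 in edgeR, 1516 in DESeq2 and 9254 in limma voom, of 15374 tested. They numbered 0 to 7745 when each library was left out, the highest without control 5, with the filter on low counts reapplied each time. Of 9 heme synthesis enzymes, 0 were so called in edgeR, 3 in DESeq2, 8 in limma voom and 0 to 8 with libraries left out, all lower. In the other lists edgeR called 0 genes. DESeq2, at 8.93% of all genes called lower, called lower 1 of 12 carriers, 1 of 9 red cell membrane and 1 of 10 late erythroid genes. It also called lower 4 of 13 heme breakdown, 1 of 7 platelet, 5 of 12 endothelial and 12 of 12 hepatocyte genes and 5 of 8 Alas1 regulators. It called higher 1 late erythroid, 3 of 7 leukocyte and 2 of 5 hypoxia genes. Limma voom, at 30.9% of all genes called lower, called lower 9 of 12 carriers, 2 of 9 red cell membrane and 3 of 10 late erythroid genes. It also called lower 4 of 9 erythroid regulators, 8 of 13 heme breakdown, 2 of 7 platelet, 11 of 12 endothelial and 12 of 12 hepatocyte genes. Lower too were 2 of 7 tumor cell, 1 of 7 leukocyte and 1 of 5 hypoxia genes and 6 of 8 Alas1 regulators. It called higher 1 carrier, 4 red cell membrane, 2 late erythroid, 1 heme breakdown, 1 platelet and 1 endothelial gene. Also higher were 4 tumor cell, 2 of 6 neutrophil, 3 leukocyte and 3 hypoxia genes. With libraries left out, the ranges began at 0 and peaked without control 5, where 25.5% of all genes were called lower. The peaks were 10 carriers, 6 red cell membrane, 5 late erythroid, 4 erythroid regulator, 8 heme breakdown, 2 platelet and 9 endothelial genes. Further, 12 hepatocyte, 5 tumor cell, 1 neutrophil, 4 leukocyte and 4 hypoxia genes and 7 Alas1 regulators were called. Higher were 1 carrier, 4 red cell membrane, 2 late erythroid, 1 heme breakdown and 1 platelet gene. So were 3 tumor cell, 1 neutrophil, 4 leukocyte and 3 hypoxia genes, and the rest were lower. Klf1, Car1 and Nr1i3, not tested with all 6 libraries, passed the filter there and were called lower. Without them 3 erythroid and 6 Alas1 regulators were called, and 2 late erythroid genes lower and 2 higher. Log2 differences under DESeq2 were -2.95 for Hba-a1 and -6.05 for Alas2, both past the threshold, and under limma voom -3.67 for Hba-a1, -3.60 for Hbb-bs, -3.52 for Hbb-bt, -5.80 for Alas2 and -1.12 for Alas1. With each library left out they ranged from -3.46 to -2.32 for Hba-a1, -3.39 to -2.35 for Hbb-bs, -3.51 to -2.17 for Hbb-bt, -6.57 to -5.06 for Alas2 and -1.79 to -0.50 for Alas1, and passed the threshold only without control 5. Without control 7 Alas2 differed by -5.06 and Alas1 by -0.50. The Alas2 minus Alas1 difference ranged from -4.79 without control 5 to -2.28 without control 6, and the globin share difference from -0.0154 to -0.00443 percentage points.

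With control 5 as the only control, signs turned for Hba-a1 (0.90), Hbb-bs (1.22), Hbb-bt (1.15), Alas2 (0.46), Alas1 (0.33), the Alas2 minus Alas1 difference (0.05) and the globin share (0.00161 percentage points). In that fit the lone control is assumed to vary like the treated libraries. With library totals in place of TMM, signs turned for Uros (0.02), Pecam1 (0.27), Cygb (0.09), Ufm1 (0.29), Fbxo33 (0.29), Calr (0.16), Ccdc91 (0.13) and Zfp108 (0.13). Over 70 other named genes and 975 recomputed values, 815 kept direction and side of the threshold, 152 newly passed it and 8 turned sign. At 3 libraries a group the exact tests cannot go below 0.1, and counts of 9 to 51 limit Hbb-bt and Alas2 in the treated libraries.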

Other observations

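Genes tied to oxygen supply were divided, with 3 positive and 2 negative differences among the 5 tested. Car9, a carbonic anhydrase induced by low oxygen, was at 3.29, 0.678 and 0.646 CPM in controls 5, 6 and 7 and at 14.9, 10.4 and 13.0 CPM in treated libraries 1, 2 and 5, a log2 difference of 2.99 (SE 0.71, edgeR unadjusted p = 0.00512, adjusted p = 0.247). The groups did not overlap, as for 8.87% of all genes that were higher. Egln3, a prolyl hydroxylase that marks the hypoxia-inducible factors for removal, was at 27.1, 23.8 and 27.3 CPM in controls and at 43.9, 48.4 and 52.1 CPM in treated libraries, a difference of 0.88 (SE 0.18, edgeR adjusted p = 0.247), and DESeq2 called both genes (adjusted p = 0.00132 and 0.000729). Ankrd37, another target of these factors, differed by 1.91 (SE 0.81). Pdk1, a kinase that keeps pyruvate from mitochondria, was named after its values had been seen and ran the other way, with controls 6 and 7 highest. It was at 46.6, 128 and 191 CPM in controls and at 60.5, 90.7 and 59.8 CPM in treated libraries, a difference of -0.79 (SE 0.52, edgeR adjusted p = 0.434) that limma voom called (adjusted p = 0.00364), as edgeR did without control 5 (adjusted p = 0.0111). Epo, the hormone that drives red cell production, was at 0.0494 CPM in treated library 1 and had 0 counts in the other 5.

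Of the 8 regulators of hepatic Alas1 tested, 7 stood above every treated library in control 6 and 6 in control 7. Of all 15374 genes tested, 5933 did so in control 6 and 6168 in control 7. Nrf1, a regulator of mitochondrial genes named after its values had been seen, ran at 20.0, 19.0 and 17.3 CPM in controls 5, 6 and 7 and at 19.4 to 23.7 CPM in treated libraries. Ppargc1a, the coactivator that induces Alas1 on fasting, was at 4.65, 24.2 and 25.6 CPM in controls and at 3.71, 4.60 and 4.89 CPM in treated libraries, a difference of -2.04 (SE 0.64). Hnf4a, a hepatocyte identity factor, differed by -5.63 (SE 1.75) and Nr1i2, the xenobiotic receptor PXR, by -5.45 (SE 1.59). In edgeR 5 of the 8 were lower at an unadjusted p under 0.05, beside 14.6% of all genes, and 0 at an adjusted one, and DESeq2 called 5 lower, beside 8.93% of all genes. Hepatocyte RNA was highest in the same controls, and its part in these differences was not tested.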
